A study of Sus scrofa with 6 samples.

Results

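Migratory dendritic cells, marked by the chemokine receptor gene Ccr7 and the actin-bundling gene Fscn1, made up 292 of the 83559 cells kept from 6 single-cell RNA sequencing libraries. A cell was kept with at least 500 gene UMIs (unique molecular identifiers, each a counted RNA molecule), at least 300 genes and at most 20% of its UMIs from mitochondrial genes. A kept cell was a member with at least 1 UMI of Ccr7, at least 1 of Fscn1, at least 3 of the MHC class II gene H2-Aa, and none of the T-cell genes Cd3d, Cd3e and Cd3g or of the neutrophil gene Csf3r. The members were thus chosen by measured UMIs of these same cells, so the levels of Ccr7, Fscn1 and H2-Aa, and the contrast with the remaining H2-Aa cells, are given as a description.

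The labels named 6 samples of skin from red duroc pigs, with 1 library each. In the order used below, the labels were pretreatment (a 1 mg deferoxamine patch for 2 weeks ahead of radiotherapy), continuous (the patch for 18 weeks in total), chronic (4 weeks of patch once the skin had recovered), acute (12 weeks of patch during recovery), irradiated (irradiated skin, with no patch named) and normal. The treatment labels of pretreatment, chronic and acute also named radiotherapy or radiation, whereas that of continuous named neither. Deferoxamine is an iron chelator. The files disagreed with these labels: all 32285 gene features were mouse genes, 4 libraries also counted hashtag antibodies against mouse cells, and the title of the series named an anti-JUN therapeutic and adhesions. The names of libraries below are those labels and nothing more, and differences between them are not attributed to radiation or deferoxamine. With 1 library per label there was no replicate and no test, and each interval below is a 95% interval for counting error only.

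Dendritic cells take up antigen in the skin and, once they mature, leave for the draining lymph node. Ccr7 steers them along its ligands Ccl19 and Ccl21, which lymphatic vessels and stromal cells make, and fascin, the product of Fscn1, bundles actin in their veils and dendrites. In this state they lose uptake receptors, carry more co-stimulatory molecules, and secrete the chemokines Ccl22 and Ccl17, which attract cells with the receptor Ccr4. The same mature state, found in tissues and tumours, also carries the regulatory genes Cd274, Pdcd1lg2 and Cd200.

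The members were rare in each library. They were 11 of 1499 kept cells in pretreatment (0.734%, interval 0.367 to 1.31%), 33 of 8916 in continuous (0.370%, 0.255 to 0.519%), 42 of 9180 in chronic (0.458%, 0.330 to 0.618%), 78 of 24132 in acute (0.323%, 0.256 to 0.403%), 81 of 22123 in irradiated (0.366%, 0.291 to 0.455%) and 47 of 17709 in normal (0.265%, 0.195 to 0.353%). The share in irradiated and the share in normal had intervals that overlapped, as did each patch schedule with irradiated. Among H2-Aa cells without Cd3 and Csf3r UMIs, which numbered 11252, members made up 3.37% in pretreatment, 3.0% in continuous, 2.80% in chronic, 2.27% in acute, 2.84% in irradiated and 2.31% in normal. Depth differed between libraries: the median kept cell held 9651, 3267, 2762, 1385, 1640 and 1441 UMIs in the same order. With each cell thinned to 1000 UMIs before the rule was applied, the shares of kept cells were 0.358%, 0.131%, 0.201%, 0.260%, 0.228% and 0.178%. The thinned counts of members were 5, 11, 17, 42, 38 and 22, so the pretreatment value rests on 5 cells.

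**Figure D1:**
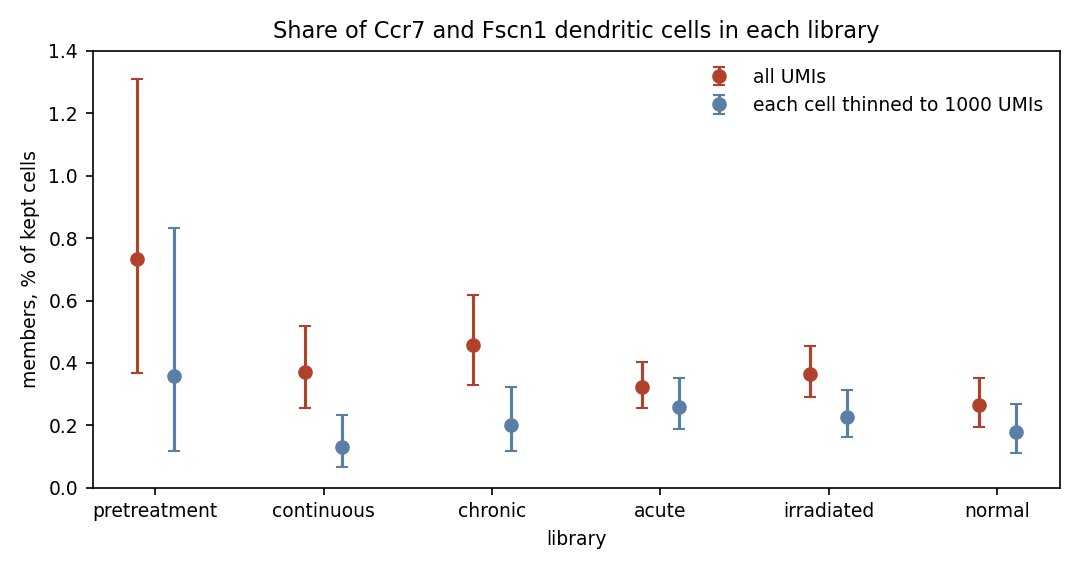
Members as a percentage of kept cells in the 6 libraries, with all UMIs and with every cell thinned to 1000 UMIs, and bars for exact 95% binomial intervals. With all UMIs the shares lie between 0.265% in normal and 0.734% in pretreatment, and the pretreatment interval, from 11 cells, is the widest.

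The label of the cells was set beside 13 markers of migratory dendritic cells, Ccl22 among them, that the rule had not used. The median member had UMIs of 7 of them, and 271 of 292 members (92.8%, 89.2 to 95.5%) had at least 3. They were compared with the 9146 H2-Aa cells with no Ccr7, Cd3 or Csf3r UMI, called other H2-Aa cells below, of which 20.3% had at least 3 of these markers. After thinning to 1000 UMIs the shares were 75.9% of members and 2.43% of other H2-Aa cells. Among 1814 H2-Aa cells that had Ccr7 but no Fscn1 UMI, the thinned share was 7.12%. Most members thus carried several of these markers, although not each one did. The markers were chosen with earlier results of these data known, and other H2-Aa cells were chosen for their lack of Ccr7. The shares therefore describe the members and are no independent test of the label.

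Cells near the Ccr7 and Fscn1 limits of the rule differed from the bulk of members, whereas those at the H2-Aa limit were close to it. Ccl22 UMIs were present in 64.7% of all members and in 59.1% of the 22 members at the H2-Aa limit. They were present in 0 of the 17 members that had exactly 1 Ccr7 and 1 Fscn1 UMI. At least 3 of the 13 markers were present in 95.5% of those 22 and 64.7% of those 17, against 92.8% of all members. Just outside the rule, Ccl22 was present in 9.87% of cells with Ccr7 and no Fscn1, in 4.35% of 230 cells with Fscn1 and no Ccr7, in 53.1% of 32 cells that had only 2 H2-Aa UMIs, and in 45.9% of 61 cells left out for a Cd3 or Csf3r UMI. Members held 44.0% of the Ccr7 UMIs of all kept cells in pretreatment, 23% in continuous, 21.9% in chronic, 14.5% in acute, 18.4% in irradiated and 20.7% in normal. Most Ccr7 RNA thus lay in cells that the rule did not take, in each library.

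The members varied widely in depth, and some carried RNA typical of other cells. Their median UMIs were 19870 in pretreatment, 6674 in continuous, 5307 in chronic, 2431 in acute, 3065 in irradiated and 2129 in normal, against 14347, 4794, 4342, 1908, 2402 and 2269 in other H2-Aa cells. The deepest member alone held 21.2%, 25.1%, 18.3%, 9.97%, 3.76% and 21.6% of all member UMIs in the same order of libraries. Members with over 5 times the median UMIs numbered 0, 1, 2, 2, 0 and 4, and members with over 1% of their UMIs from keratinocyte and fibroblast markers numbered 0, 3, 2, 13, 5 and 3. Together these kinds of members, 30 in all, held 37.8% of the member UMIs in continuous, 34.0% in chronic, 39.0% in acute, 14.5% in irradiated and 43.9% in normal. Results between labels are therefore given both with all members and without these kinds, a choice made after their values were seen.

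**Figure D2:**
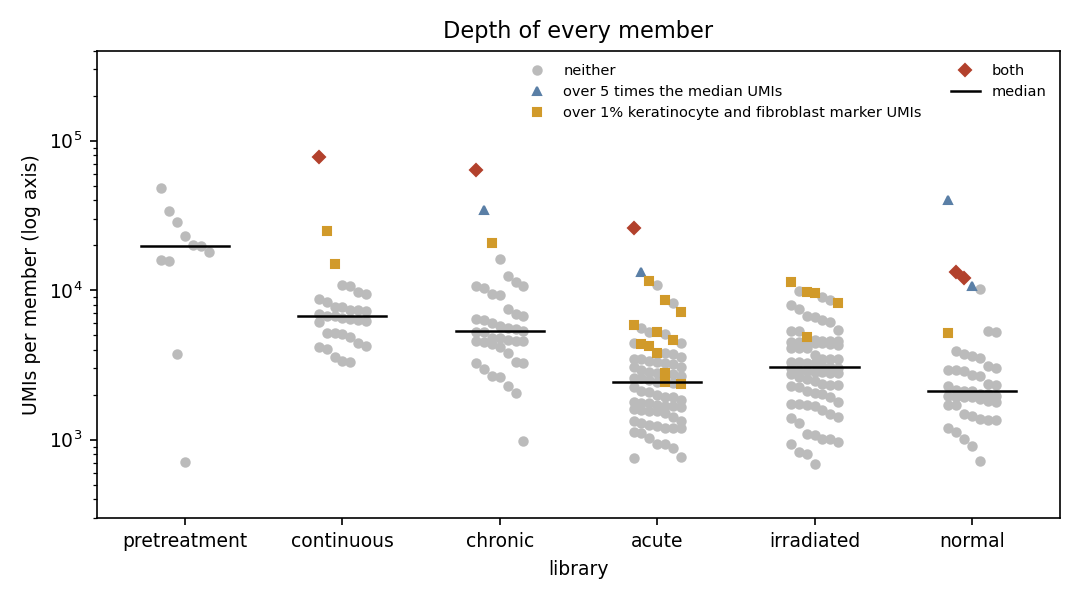
UMIs of each member (log axis) in the 6 libraries, with a line at the median and separate symbols for members over 5 times the median and for members over 1% keratinocyte and fibroblast marker UMIs. Single members reach 78438 UMIs in continuous, 64127 in chronic and 39893 in normal, far above the medians of 6674, 5307 and 2129.

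Marker sums of other cell types gave the size of this RNA. The 6 keratinocyte markers summed to 0, 3620, 5970, 2652, 418 and 64.9 CPM (UMIs of a gene scaled by all UMIs summed over the members of a library) in pretreatment, continuous, chronic, acute, irradiated and normal. Without the deep and marker-rich members they summed to 0, 51.5, 21.6, 43.6, 58.3 and 57.8 CPM. The 6 fibroblast markers summed to 114, 3309, 2978, 9954, 4161 and 6499 CPM over all members and to 114, 108, 592, 1166, 762 and 655 CPM without those members. Neutrophil markers summed to 4.40, 707, 3040, 4947, 6452 and 1742 CPM over all members. S100a8, a calprotectin subunit gene of neutrophils, had UMIs in 58.6% of members and 60.6% of other H2-Aa cells. After thinning the shares were 32.7% and 38.7%, and the source of this RNA was not tested. The sums of macrophage markers were 694, 5095, 5890, 4730, 5101 and 3793 CPM in members, against 8031, 21850, 20990, 16880, 16390 and 14970 CPM in other H2-Aa cells.

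The genes of the rule and the chemokine Ccl22 stood highest in members. Ccr7 was at 2734, 1267, 1537, 2028, 2680 and 2392 CPM in members of pretreatment, continuous, chronic, acute, irradiated and normal, and at 0 in other H2-Aa cells because the rule set it so. Fscn1 was at 2426, 951, 1035, 898, 1790 and 1331 CPM in members, against 2.46, 6.53, 7.45, 15.5, 17.0 and 12.4 CPM in other H2-Aa cells. Ccl22, a chemokine that attracts regulatory and type 2 helper T cells, was at 6228, 1255, 2373, 1256, 2464 and 1807 CPM in members, against 5.91, 1.52, 11.4, 9.69, 14.3 and 3.45 CPM in other H2-Aa cells. The Ccl22 groups did not overlap, and the ratio within a library had a median of 208 (130 to 823) over the 5 libraries with at least 20 members, which leaves out pretreatment. Ccl17, the other chemokine for Ccr4, was at 5968, 170, 639, 137, 103 and 43.3 CPM in members, against 125, 18.9, 17.9, 4.47, 4.17 and 2.23 CPM in other H2-Aa cells. Its median ratio was 24.7 (8.96 to 35.7), and its level differed between libraries far more than that of Ccl22. A single one of the 11 pretreatment members held 76.2% of the Ccl17 UMIs there.

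Across all genes with at least 50 UMIs, 229 of 11907 (1.92%) were higher in members than in other H2-Aa cells in each of the 5 libraries, meaning at least 2-fold with an interval that left out 1, and 178 (1.49%) were lower in each. Because the rule chose the members on this contrast, nothing is read from these shares. Of the 18 migratory dendritic cell markers outside the rule, 14 were higher in each library, with a median log2 ratio over them of 3.54, against 0.09 over all genes tested. The genes with the highest median ratios beside Ccr7, Ccl22 and Fscn1 were Il12b (204-fold), Serpinb6b (75.5-fold), Cacnb3 (70.7-fold), Apol7c (65.6-fold), Tbc1d4 (53.9-fold), Bcl2l14 (53.4-fold), Slco5a1 (51.1-fold), Ikzf4 (48.3-fold), Strip2 (46.0-fold), Il4i1 (42.2-fold), Dll4 (42.0-fold) and Nudt17 (41.1-fold). Serpinb6b encodes an intracellular protease inhibitor, Cacnb3 a calcium channel subunit, Tbc1d4 a regulator of vesicle traffic and Dll4 a Notch ligand. Cacnb3 was at 404, 253, 168, 103, 226 and 173 CPM in members, against 1.23, 2.83, 2.38, 3.73, 3.12 and 4.06 CPM in other H2-Aa cells. The lowest ratios belonged to Ms4a8a, Mertk, Arg1, Rab3il1, Serpinb8, Tbxas1, Cd300lb, Kcnn4, Sirpb1b and Dok2. Mertk, a receptor for apoptotic cells, was 12.4-fold lower at the median, and Arg1, an arginine-degrading enzyme of macrophages, was 11.9-fold lower.

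**Figure D3:**
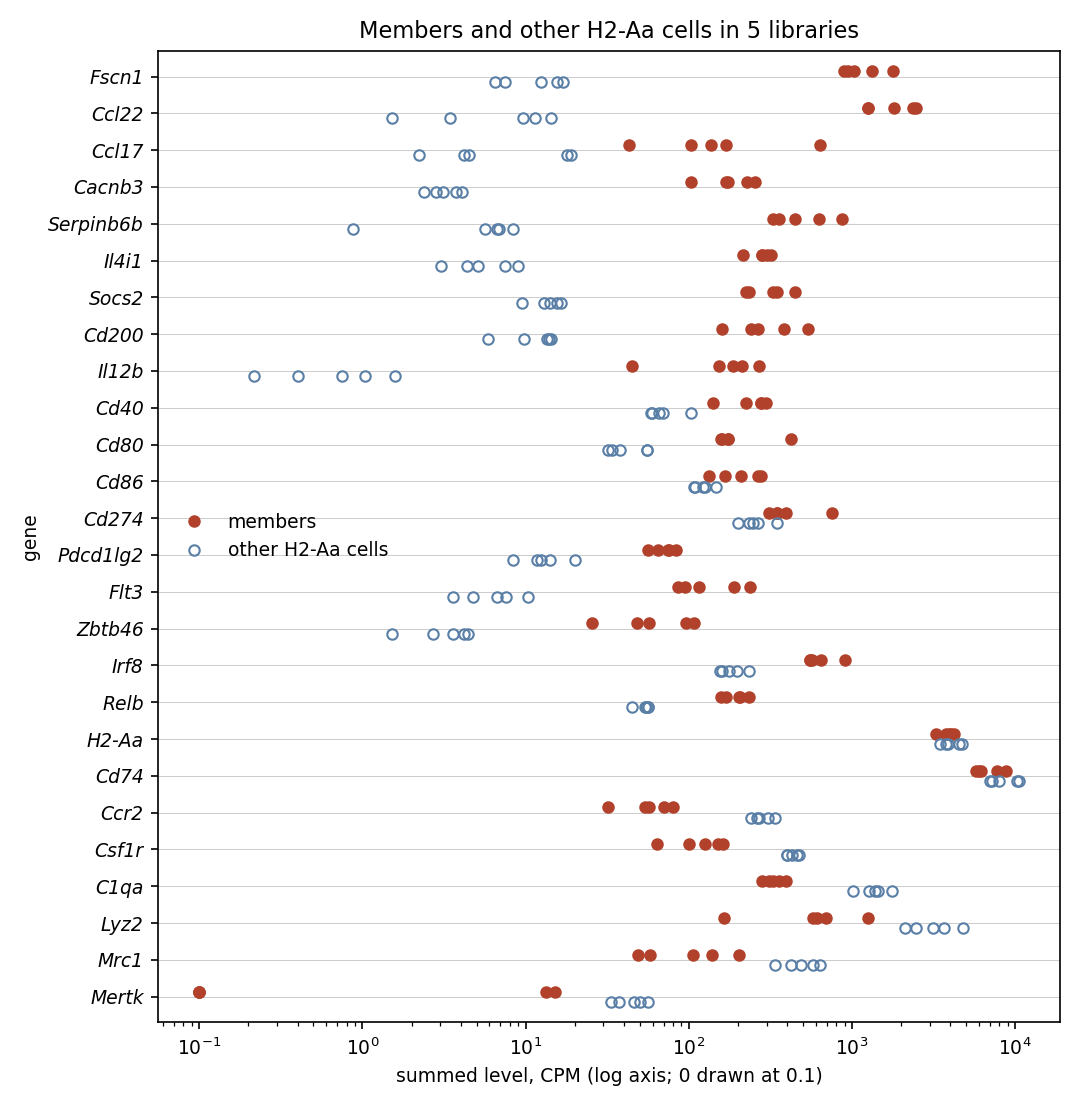
Summed level in CPM (log axis, with 0 drawn at 0.1) of 26 genes in members and in other H2-Aa cells of the 5 libraries with at least 20 members, 1 point per library. The points of Fscn1, Ccl22, Il12b and Flt3 in members lie wholly to the right of those in other H2-Aa cells, those of Ccr2, Csf1r and Lyz2 lie wholly to the left, and those of H2-Aa overlap.

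Some dendritic cell genes were higher in members, and most macrophage markers were lower. Of 14 dendritic cell genes, among them H2-Aa of the rule, 5 were higher in each of the 5 libraries and none was lower. These were Flt3, the receptor for the growth factor that maintains dendritic cells, at a median of 23-fold, the conventional dendritic cell factor Zbtb46 at 24.3-fold, the transcription factors Batf3 at 10.4-fold and Irf8 at 3.50-fold, and the peptidase gene Dpp4 at 7.02-fold. Flt3 was at 57.1, 115, 85.6, 95.1, 189 and 238 CPM in members of the 6 libraries. Irf4, a factor needed by dendritic cells for migration to lymph nodes in mice, had a median ratio of 3.86 and was past the fold in 4 of 5 libraries. Of 13 macrophage and monocyte markers, 12 were lower in each library, among them the growth factor receptor Csf1r (3.17-fold), the complement gene C1qa (4.47-fold) and lysozyme Lyz2 (3.85-fold). Lyz2 UMIs were nonetheless present in 44.2% of members against 89.4% of other H2-Aa cells, and after thinning in 26.3% against 80.0%.

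Genes of antigen uptake were lower, whereas antigen presentation genes were mixed. Of 18 uptake and pattern recognition genes, 10 were lower in each library and none was higher, including the mannose receptor gene Mrc1 (3.98-fold) and the endotoxin co-receptor gene Cd14 (2.80-fold). Of 15 MHC class II presentation genes, 3 were higher and 2 were lower in each library. H2-Eb2 was 39.2-fold higher, H2-DMb2, part of the peptide loading factor, 16.2-fold higher, and H2-Oa, part of an inhibitor of that factor, 7.45-fold higher. The lysosomal protease genes Ctss and Lgmn were 2.68-fold and 3.34-fold lower. The abundant class II genes stood close to their level in other H2-Aa cells, with median ratios of 0.947 for H2-Aa, 0.783 for H2-Ab1 and 0.797 for the invariant chain gene Cd74, all in cells chosen for H2-Aa. Among 16 MHC class I presentation genes, only the proteasome activator gene Psme2 (2.62-fold) was higher in each library.

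Some co-stimulatory and some regulatory genes were higher in members, and a few of each were lower. Of 14 co-stimulatory genes, 4 were higher in each library: Cd40, the receptor through which T cells license dendritic cells, at a median of 3.24-fold, the Cd28 ligand gene Cd80 at 4.67-fold, the Ox40 ligand gene Tnfsf4 at 36.7-fold and Tnfrsf9 at 4.73-fold. The Hvem ligand gene Tnfsf14 was lower in each library, at a median of 5.95-fold. Cd40 was at 268, 224, 277, 141, 276 and 298 CPM in members, and Cd80 was at 308, 160, 157, 175, 422 and 173 CPM. Cd86, the second Cd28 ligand, had a median ratio of 1.89 and was past the fold in 1 of 5 libraries. Of 16 co-inhibitory and tolerance genes, 3 were higher in each library, namely the PD-1 ligand gene Pdcd1lg2 (5.43-fold), Cd200, whose receptor restrains myeloid cells (26.7-fold), and Il4i1, an amino acid oxidase (42.2-fold). The galectin gene Lgals3 (2.35-fold) and the checkpoint gene Vsir (5.86-fold) were lower in each library. Cd274, which encodes PD-L1, the other ligand of PD-1, was at 378, 349, 308, 346, 757 and 395 CPM in members, against 56.9, 233, 199, 246, 348 and 266 CPM in other H2-Aa cells. Its median ratio of 1.5 was past the fold in 1 of the 5 libraries, so the ligands of PD-1 differed in size of ratio.

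Cytokine and chemokine genes went in both directions. Of 17 cytokine genes only Il12b, the shared subunit of interleukins 12 and 23, was higher in each library. It was at 114, 44.8, 185, 152, 213 and 271 CPM in members, against 0, 0.218, 1.59, 0.745, 1.04 and 0.406 CPM in other H2-Aa cells, and its UMIs were present in 21.2% of members and 0.120% of other H2-Aa cells. The inflammatory cytokine gene Tnf was 3.94-fold lower and the anti-inflammatory Il10 4.09-fold lower at the median. Of 15 chemokine genes, Ccl22 and Ccl17 were higher in each library, and Ccl4, Ccl6, Ccl9, Cxcl2 and Cxcl3 were lower. Among 12 chemokine and lipid homing receptors, Ccr7, the oxysterol receptor gene Gpr183 (8.82-fold) and the prostaglandin receptor gene Ptger4 (2.94-fold) were higher in each library. The inflammatory receptors Ccr2 (4.46-fold) and Ccr1 (4.24-fold) were lower. The receptor genes thus differed in direction within the list.

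Smaller numbers of signalling and cytoskeletal genes differed. Of 22 NF-kB genes, Relb, the subunit of the noncanonical pathway (3.61-fold), and Birc2 (5.20-fold) were higher in each library. Of 27 cytoskeleton and migration genes, 6 were higher: Fscn1 itself, the tubulin genes Tubb2b (9.67-fold) and Tuba1a (3.35-fold), the adhesion regulator Cytip (3.28-fold), the small GTPase Rhoc (4.33-fold) and Adam23. Of 15 genes linked to dendritic cells that favour type 2 helper T cells, 7 were higher in each library, namely Stat5a, Socs2, Ccl17, Ccl22, Tnfsf4, Pdcd1lg2 and Il2ra, of which several also stand in other lists. Of 24 interferon-stimulated genes none was higher and only Oasl1 was lower in each library. The other lists had at most 2 members past the fold in each library in either direction.

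**Figure D4:**
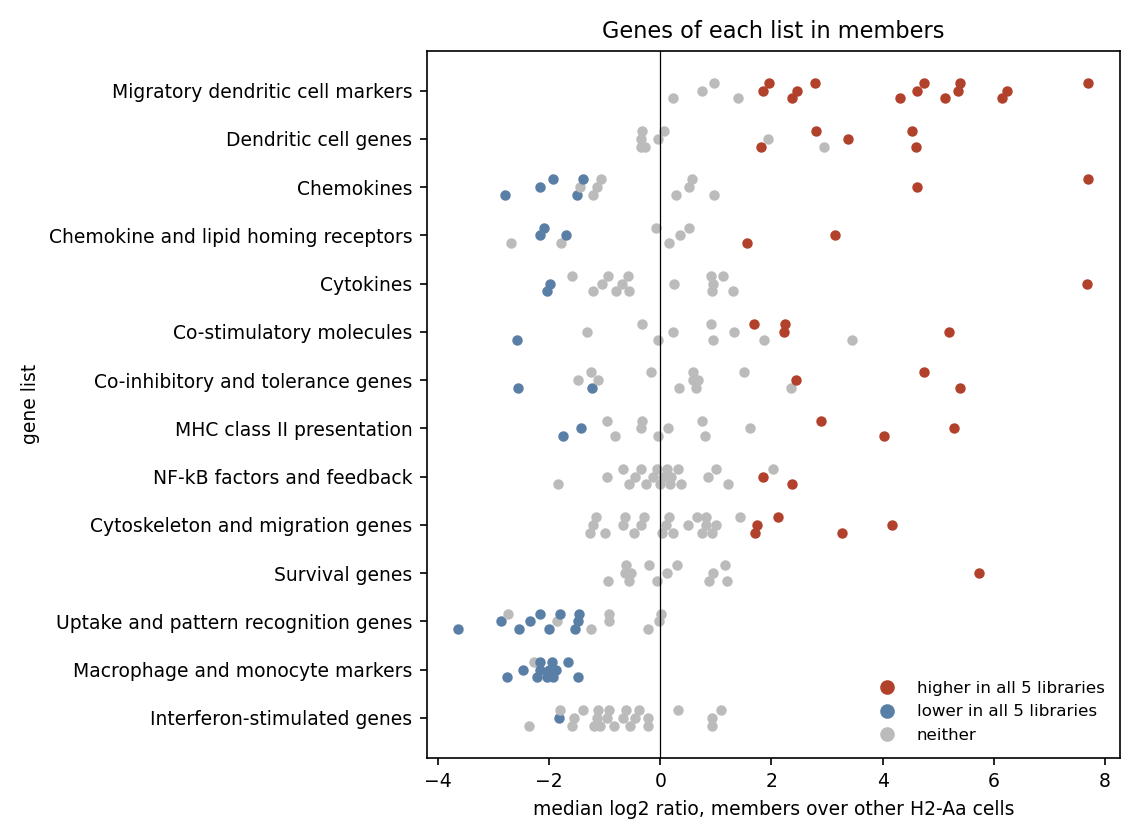
Median log2 ratio of members over other H2-Aa cells, across 5 libraries, for each gene of 14 lists, with red for genes past the fold higher in each library, blue for lower and grey for neither. The genes of the rule are not drawn. Of the 18 migratory markers drawn 14 are red, 12 of 13 macrophage markers are blue, and the interferon-stimulated genes have no red point.

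Xcr1, Clec9a, Cd209a and Cd207, markers of dendritic subsets from which such cells can derive, were scarce in members, whereas wider lists of subset markers were mixed. Over all 292 members there was 1 UMI of Xcr1 and 1 of Clec9a, which mark type 1 dendritic cells, 4 of Cd209a, which marks a type 2 subset in mice, and 2 of Cd207, which marks Langerhans cells. Of 9 Langerhans cell markers tested against other H2-Aa cells, Mfge8 was higher in each of the 5 libraries and none was lower. Of 9 type 1 markers, Irf8 and Batf3 were higher and Naaa was lower in each. Of 10 type 2 markers, none was higher, and Itgam and Ccr2 were lower in each. The median log2 ratios of these lists were 1.42, 0.556 and -0.789. Neither the counts nor the lists show which subset a member came from. Cells that did carry Cd209a, Cd207, Xcr1 or Clec9a without Ccr7 were compared in pretreatment, where they were most numerous. The type 2-like set (at least 2 Cd209a UMIs) held 97 cells there and 142 in all libraries, the Langerhans-like set held 19 there and 31 in all, and the type 1-like set held 19 in all. In pretreatment, Ccl22 was at 6228 CPM in the 11 members and 8.11 CPM in type 2-like cells, Cd40 at 268 and 25.6 CPM, Cd274 at 378 and 44.9 CPM, and Irf8 at 400 and 39.3 CPM. In the same pair of sets, Mrc1 was at 4.40 CPM in members and 935 CPM in type 2-like cells, the class II activator gene Ciita at 4.40 and 61.2 CPM, and H2-Ab1 at 4892 and 8257 CPM. Epcam, an adhesion gene of Langerhans cells, was at 26.4 CPM in these members and 262 CPM in Langerhans-like cells.

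Single members differed from each other. Ccl17 was present in 23.3% of members and 1.07% of other H2-Aa cells (13.3% and 0.497% after thinning), and Ccl22 in 64.7% and 1.71% (139 of 278 members and 0.734% after thinning). Ccl22 was found in 94.1% of the 68 members with a Ccl17 UMI and in 55.8% of the 224 members without one, whose median depths were 5238 and 2859 UMIs. Zbtb46 was present in 27.4% of members and 1.49% of other H2-Aa cells, Cd80 in 146 of 292 members and 12.8%, Cd274 in 73.0% and 44.1%, and Irf8 in 72.3% and 32.9%. Ccl22 was present in 80.8% of the 125 members with Flt3 and in 52.7% of the 167 without it, at like median depths of 3342 and 3289 UMIs. Ccl22 was present in 53.5% of the 129 members with Lyz2, against 73.6% of the 163 members without it, even though the members with Lyz2 were deeper (4460 and 2839 UMIs). C1qa followed Lyz2, with UMIs in 48.8% of members with Lyz2 and 15.3% of those without. Cldn1, a tight junction gene, was present in 66.7% of the 21 members with Epcam and in 6.64% of the 271 without. Their median depths were 11353 and 3243 UMIs. These counts kept the deep and marker-rich members, whose part in them was not tested.

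Between labels, the first comparison set members of the irradiated library against those of the normal library, which are irradiated and normal skin by label. Of 3667 genes with at least 20 UMIs over both sums, 165 (4.50%) were higher in irradiated members past the fold and 149 (4.06%) were lower. Without the deep and marker-rich members, 126 of 2833 genes (4.45%) were higher and 77 (2.72%) were lower, and 87 genes passed the fold in the same direction in both counts. Of the 19 migratory markers tested, 1 was higher with all members and none passed the fold without those kinds of members, which is near or below the share of all genes. Ccr7 had a ratio of 1.12 with all members and 0.788 without those kinds, Fscn1 1.35 and 0.886, and Ccl22 1.36 and 0.907. Each of the 3 genes changed side, with 43.9% of the UMIs of normal members lying in the 5 members left out.

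Tnf, Il10 and several inflammatory chemokine genes stood higher in irradiated members in both sets of members, and their levels were also higher in other H2-Aa cells of that library. Tnf was at 677 CPM in irradiated members and 211 CPM in normal members, a ratio of 3.21 (2.27 to 4.65), and the ratio was 3.43 without the deep and marker-rich members. In other H2-Aa cells, Tnf was at 1954 CPM in irradiated and 877 CPM in normal. Il10 was at 239 CPM in irradiated members and 32.5 CPM in normal members, a ratio of 7.37 (3.22 to 20.7), and at 977 and 548 CPM in other H2-Aa cells. Without the deep and marker-rich members Il10 was at 233 CPM in irradiated members and had no UMI in normal members, a ratio of at least 8.06 against a floor of 3 UMIs over the library's members. Il2ra, the high-affinity interleukin 2 receptor chain, was at 296 CPM in irradiated members and 86.6 CPM in normal members, a ratio of 3.41 (1.99 to 6.23), and 2.70 without those kinds. The antiviral gene Rsad2 had ratios of 3.31 and 7.86. The vitamin D receptor gene Vdr went the other way, at 36.5 CPM in irradiated members and 119 CPM in normal members, 3.26-fold lower (1.52 to 7.44) and 4.46-fold lower without those kinds. Of 10 cytokine genes, 3 were higher and 1 lower over all members, and 2 were higher and 2 lower without those kinds. The lower one was Il23a, the subunit that pairs with Il12b in interleukin 23, at 43.2 CPM in irradiated members and 119 CPM in normal members, 2.76-fold lower (1.33 to 5.96). Its UMIs lay in 4 members of each library, and a single member held 53.9% of them in irradiated and 63.6% in normal. Il12b was 1.27-fold lower over all members, which did not pass the fold, and 2.05-fold lower without those kinds, at 225 CPM in irradiated members and 463 CPM in normal members.

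Of 13 chemokine genes, 8 were higher in irradiated members and 6 without the deep and marker-rich members (Ccl2, Ccl4, Ccl6, Ccl9, Cxcl2 and Cxcl3), with none lower. Ccl4 was at 2049 CPM in irradiated members and 471 CPM in normal members, against 5673 and 2105 CPM in other H2-Aa cells. The neutrophil markers moved with them, with 5 of 5 higher over all members and 4 of 5 without those kinds, and their part in the result was not tested. The same holds for the macrophage markers, of which Mrc1 and Chil3 of 13 were higher over all members and C1qb, Mrc1, Apoe and Ly6c2 of 11 without those kinds, and for the 3 keratinocyte markers tested over all members, which were all higher. Values of these chemokine genes moved with the doublet calls. At its own threshold the caller marked 21.8% of kept cells and 26 of 81 members in irradiated. In normal its own threshold marked 0% of cells, so the cells with the highest scores were taken up to an expected rate of 10%, with 4 of 47 members. With marked cells left out, the log2 ratio of Ccl4 was 0.65 in place of 2.12, that of Cxcl2 was -0.48 in place of 1.04, and that of Ccl9 was -0.07 in place of 1.66. Tnf then had a log2 ratio of 1.35 and Il10 one of 3.83. Immediate early genes were lower in irradiated members over all members, with Fosb 3.75-fold lower and Fos 2.18-fold lower, and the values were 1.32-fold and 1.15-fold without the deep and marker-rich members. A single normal member held 60.3% of the Fosb UMIs and 53.6% of the Fos UMIs of that library's members.

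The continuous library was compared with irradiated, whose treatment label names no patch, and the irradiated library is shared by the next comparisons as well. Of 4123 genes tested, 240 (5.82%) were higher in continuous members and 589 (14.3%) were lower. The median log2 ratio over all genes was -0.25, and with sums scaled to a median ratio of 1 the split was 390 higher and 369 lower. Without the deep and marker-rich members, 114 of 3153 genes (3.62%) were higher and 405 (12.8%) were lower. Of 13 chemokine genes, 6 were lower over all members and 7 without those kinds, with none higher over all members and Ccl17 and Cxcl10 higher without those kinds. Of 10 cytokine genes 6 and 5 were lower and none was higher. Of 13 survival genes 6 and 5 were lower, while Bcl2a1d was higher in both sets and Bcl2a1b without those kinds. Tnf was at 83.2 CPM in continuous members and 677 CPM in irradiated members, 8.14-fold lower (5.40 to 12.8), and 10.9-fold lower without those kinds. Il12b was at 44.8 CPM in continuous members and 213 CPM in irradiated members, 4.74-fold lower (2.63 to 9.16), and 3.13-fold lower without those kinds. Ccl4 was 10.7-fold and 10.1-fold lower and Il2ra 6.16-fold and 4.38-fold lower in the same pair of sets. All of these ratios lay well beyond the shift of all genes.

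Genes of NF-kB feedback and survival were among those lower in continuous members in both sets. The feedback inhibitor Tnfaip3 was at 263 CPM in continuous members and 953 CPM in irradiated members, 3.63-fold lower and 2.52-fold lower without the deep and marker-rich members. The inhibitor of apoptosis Birc3 was 3.15-fold and 2.53-fold lower, and the survival gene Bcl2l1 4.34-fold and 4.75-fold lower. Ccr7 was 2.11-fold lower over all members and 1.52-fold lower without those kinds, Cd80 2.64-fold and 1.89-fold, Cd274 2.17-fold and 1.67-fold, and Cd200 2.23-fold and 1.63-fold, so these genes passed the fold over all members and not without those kinds. Without marked doublets, 26 of which lay in irradiated members, the log2 ratio of Ccl4 was -1.80 in place of -3.42, and Ccl22 (-1.65) and Fscn1 (-1.39) passed the fold. Fabp5, a fatty acid-binding protein, was at 3498 CPM in continuous members and 1315 CPM in irradiated members, a ratio of 2.66 (2.37 to 2.99), and 3.64 without those kinds. Of 20 migratory markers, 1 was higher and 4 were lower over all members, and 3 were higher and 0 lower without those kinds. Zmynd15, the 1 higher over all members, had ratios of 2.03 and 3.07. Cd48, a ligand on many leukocytes, had ratios of 2.53 and 3.48. Fabp5 was also higher over all kept cells, at 1054 CPM in continuous and 346 CPM in irradiated. All 5 neutrophil markers tested were lower in continuous members in both sets, and their part in the results was not tested.

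Ccl17 and co-stimulatory genes were among those that differed between chronic and irradiated members. Of 4314 genes tested, 292 (6.77%) were higher in chronic members and 440 (10.2%) were lower, with a median log2 ratio over all genes of -0.14, and the split was 388 higher and 305 lower with sums scaled to a median ratio of 1. Without the deep and marker-rich members, 139 of 3417 genes (4.07%) were higher and 276 (8.08%) were lower. Ccl17 was at 639 CPM in chronic members and 103 CPM in irradiated members, a ratio of 6.21 (4.25 to 9.35), and 8.04 without those kinds. Its 224 UMIs came from 18 of 42 members, 45.5% of them from a single member. Mfge8, which bridges apoptotic cells to phagocytes, was at 531 CPM in chronic members and 186 CPM in irradiated members, a ratio of 2.85 (2.11 to 3.92), and 4.07 without those kinds. The interferon-induced chemokine Cxcl9 had ratios of 3.11 and 4.32, but a single member held 54.3% of its UMIs in chronic, and its log2 ratio of 0.84 without marked doublets was under the fold. The class II genes H2-Eb1 and H2-Ab1 had ratios of 1.89 and 1.71 over all members and passed the fold only without those kinds, at 2.30 and 2.14.

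Of 11 co-stimulatory genes tested, 8 were lower in chronic members and 6 without the deep and marker-rich members, with none higher in either. Lower genes of this list were not particular to chronic. In continuous against irradiated, 6 of 12 were lower and 2 higher over all members, and 2 were lower and 2 higher without those kinds. The median log2 ratio of this list in chronic against irradiated was -1.43 over all members, against -0.14 over all genes. Tnfsf9, the 4-1BB ligand gene, was at 54.2 CPM in chronic members and 432 CPM in irradiated members, 7.97-fold lower (4.90 to 13.7), and 5.92-fold lower without those kinds. Tnfrsf9, which encodes its receptor, was 3.33-fold and 3.09-fold lower, the maturation marker Cd83 2.78-fold and 2.13-fold, and Cd80 2.69-fold and 2.04-fold. Nfkbid, an atypical inhibitor of the NF-kB family, was at 39.9 CPM in chronic members and 269 CPM in irradiated members, 6.74-fold lower (3.79 to 12.9), and 5.19-fold lower without those kinds. Cd200 was 3.35-fold and 2.57-fold lower, and Birc3 3.12-fold and 2.52-fold lower. Tnf was lower here too, by 6.60-fold and 5.25-fold, and Ccl4 by 10.4-fold and 8.02-fold. Ccr7 (1.74-fold lower over all members), Fscn1 (1.73-fold lower) and Ccl22 (1.04-fold lower) did not pass the fold. Without marked doublets, Fscn1 did, at a log2 ratio of -1.13, and Ccl4 stood at -1.63. Of the neutrophil markers, 3 of 6 were lower over all members and 5 of 6 without those kinds, and their part in the results was not tested.

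Of the 3 patch schedules with a count of genes, acute had the fewest past the fold against irradiated. Of 4163 genes tested, 251 (6.03%) were higher in acute members than in irradiated members and 161 (3.87%) were lower, and without the deep and marker-rich members 108 of 3211 genes (3.36%) were higher and 98 (3.05%) were lower. Gdf15, a stress-induced member of the TGF-beta family, was at 263 CPM in acute members and 63.1 CPM in irradiated members, a ratio of 4.16 (2.48 to 7.32), and 7.78 without those kinds, with 30.4% of its acute UMIs in a single member. The lectin receptor gene Clec4n had ratios of 3.17 and 3.78, and the hexokinase gene Hk2 ratios of 2.04 and 3.09. Kdm4a, a histone demethylase gene, was at 15.2 CPM in acute members and 146 CPM in irradiated members, 9.60-fold lower (3.50 to 36.8), and 6.55-fold lower without those kinds. Map3k14, which encodes the NF-kB-inducing kinase of the noncanonical pathway, was 3.49-fold and 2.73-fold lower. Of 20 migratory markers, 6 were lower over all members, but none of 19 passed the fold without those kinds: Serpinb6b was 2.64-fold and 1.92-fold lower, and Cacnb3 2.20-fold and 1.87-fold. Of 16 interferon-stimulated genes, 6 were lower over all members, against 2 of 14 without those kinds (Stat2 and Rsad2). Without marked doublets, Stat2 did not pass the fold, while Ccl22 and Fscn1 did, at log2 ratios of -1.59 and -1.42. Over all members, 4 of 4 keratinocyte markers and 4 of 6 fibroblast markers were higher in acute than in irradiated, and their part in these results was not tested.

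**Figure D5:**
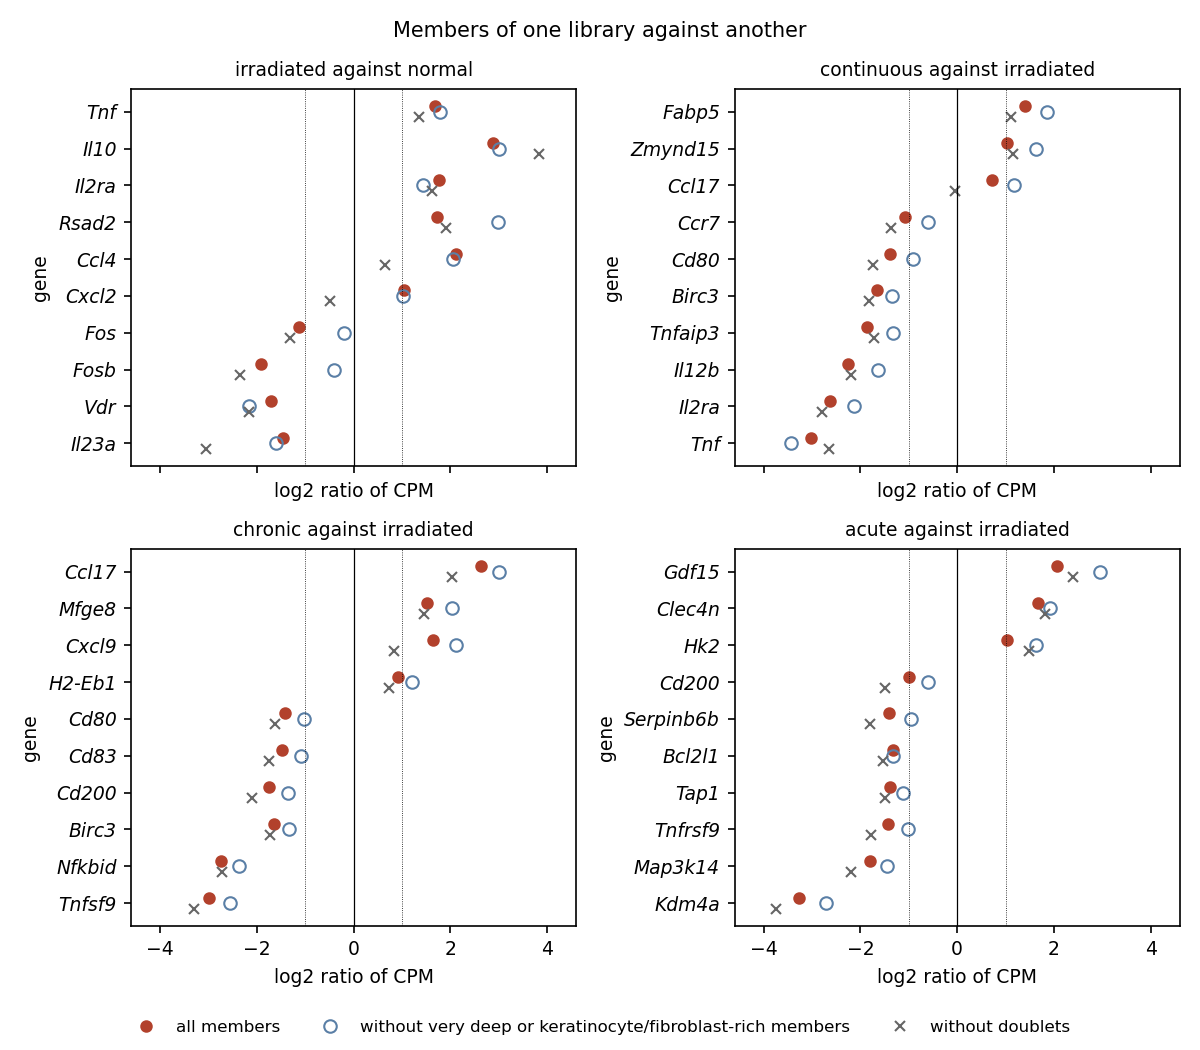
Log2 ratio of summed CPM between members of a pair of libraries for 10 genes in each of 4 comparisons, over all members, without the deep or marker-rich members, and without marked doublets, with dotted lines at 2-fold. Tnf and Il10 lie to the right of the 2-fold line in irradiated against normal under all 3 settings, whereas Cxcl2 falls on the left of 0 without doublets, and Tnfsf9 and Nfkbid lie far to the left in chronic against irradiated under all 3.

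The genes with the most extreme ratios between labels were mostly keratin, collagen and other epithelial or stromal genes held by very few members. In chronic, 95.3% of 1092 Krt14 UMIs and 99.6% of 441 Krt16 UMIs lay in 1 of 42 members. In normal, all 119 Krt8 UMIs lay in 1 of 47 members. These keratin values describe single barcodes and not the members as a group. The 11 pretreatment members were too few for a count of genes. Beside Ccl17 and Ccl22, they differed in the retinoic acid synthesis gene Aldh1a2, at 246 CPM in pretreatment members and 6.64 CPM in irradiated members, but 89.3% of its UMIs lay in 1 cell. Cd200 was at 39.6 CPM in pretreatment members and 535 CPM in irradiated members, and Tnf at 0 and 677 CPM. Neutrophil markers summed to 4.40 CPM in pretreatment members and 6452 CPM in irradiated members. Macrophage markers summed to 694 and 5101 CPM and fibroblast markers to 114 and 4161 CPM in the same pair of sets. The part of these 3 lists in the differences was not tested.

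The ligands of Ccr7 were measured in other cells of the same libraries. Ccl21a lay mainly in the 12 to 36 cells per library with lymphatic markers (Lyve1 with Prox1 or Pecam1), which held 96.0%, 87.3%, 84.4%, 65.2%, 70.9% and 62.7% of its UMIs in pretreatment, continuous, chronic, acute, irradiated and normal. Ccl19 lay in cells with at least 2 Col1a1 plus Dcn UMIs, which held between 87.5% and 99.7% of its UMIs. Over all kept cells Ccl19 was at 192, 15.0, 11, 4.43, 5.39 and 6.94 CPM, and Ccl21a at 44.2, 12.0, 0.868, 3.24, 1.58 and 11.9 CPM. Pretreatment thus had the highest level of both ligands, in a library of 1499 cells whose makeup differed from the others. Members themselves held at most 2 Ccl19 UMIs in a library and 1 Ccl21a UMI over all libraries. The measured ligand RNA thus lay almost wholly outside the members. The cells with Col1a1 or Dcn UMIs also held 53.5% of the Ccr7 UMIs of pretreatment and between 3.53% and 26.8% in the other libraries, a set that members with such UMIs can share.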

How the data were processed

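Single-cell RNA sequencing of 6 libraries, 1 per label, was taken from the deposited matrices. They hold raw counts, namely UMIs per gene and barcode, which the authors made with Cell Ranger 6.0.0 per the file headers. The submitters' processing notes also name Seurat 5.0.1 and the pig build Sscrofa11.1, whereas the features are mouse Ensembl identifiers. The mouse annotation is not given in the sources used here. Hashtag counts were kept out of gene totals, and no source tied tags to animals. Library depth was 18611144, 41423107, 37470412, 49408533, 54966435 and 41136493 gene UMIs in pretreatment, continuous, chronic, acute, irradiated and normal.

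UMIs were summed over the members of a library and scaled to CPM. Ratios carry exact conditional Poisson intervals and shares carry Clopper-Pearson intervals, both at 95%. A gene passed the fold at 2-fold or more with an interval that left out 1, among genes with at least 20 UMIs over both sums. Ratios of members to other H2-Aa cells were taken within each library with at least 20 members. Genes entered with at least 50 UMIs in either of these sets, summed over all 6 libraries. UMIs are not independent of cell makeup, so intervals cover counting error only. Between labels a floor of 3 UMIs stood in for a sum of 0, and in the median ratios of members to other H2-Aa cells 0.5 UMIs did. Cells were thinned to 1000 UMIs with a fixed seed, and shallower cells were then left out. Doublets were kept in the main values and left out in an alternative, as marked by Scrublet (scanpy 1.11.5), using the threshold it chose (continuous, irradiated) or, where that marked under 0.5% of cells (the other 4), the highest scores at an expected 0.8% per 1000 barcodes up to 10%. Barcodes kept in more than 1 library came to 732 over all pairs, and none was shared between members. The scripts were tested on simulated data and used Python 3.11.15, numpy 2.4.6, scipy 1.17.1, pandas 2.3.3 and matplotlib 3.10.9.

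The members and gene lists were chosen with earlier results of these data known. Named genes were a fixed set of markers, the 15 highest and 10 lowest ratios of members to other H2-Aa cells, the leading genes of each list, and the 8 highest and 8 lowest ratios between labels. As the last were mostly genes of single members, the text gives few of them, and the genes it names between labels were chosen after their values were seen, mainly from those past the fold both with and without the deep and marker-rich members. Pretreatment had under 20 members and entered no count of genes.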

Additional observations from a re-analysis of the deposited data

How the results depend on the processing

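The shares moved most with depth and with the rule: thinned to 1000 UMIs they were 0.358% in pretreatment, 0.131% in continuous, 0.201% in chronic, 0.228% in irradiated and 0.178% in normal, with at least 2 UMIs of both Ccr7 and Fscn1 0.327% in chronic, 0.187% in acute, 0.267% in irradiated and 0.186% in normal, and with at least 1000 UMIs per cell 0.451% in acute, 0.456% in irradiated and 0.364% in normal. Members against other H2-Aa cells gave 229 higher and 178 lower genes, 116 and 85 after thinning, and 252 to 268 and 185 to 233 with each library left out. Counts of genes past the fold between labels moved by over 1.5 times under the settings that follow, and not with median-ratio scaling or without members with a B-cell UMI. For irradiated against normal (314) they numbered 76 after thinning, 126 and 574 with a minimum of 50 and 1 UMIs, 181 with the rule of 2 UMIs each, 203 without the deep and marker-rich members and 140 without these, doublets and members with a B-cell UMI (all doubtful members below). For continuous (829) they were 151, 381, 456, 519 and 380 under thinning, the minimum of 50, the rule of 2 each and both removals, and 519 without marker-rich members alone. For chronic (732) they were 139, 350, 1101, 387, 415 and 379 in the order given for irradiated, 452 without deep and 459 without marker-rich members. For acute (412) they were 85, 157, 744, 173, 206 and 267 in that order, and 250 without marker-rich members. Of 829, 732 and 412 calls, 354, 290 and 127 were shared with the set without deep and marker-rich members. A like count could hold other genes. Without members with a B-cell UMI, 152 of the 314 calls of irradiated against normal were shared, and 779, 590 and 393 in continuous, chronic and acute. Without doublets the shared calls were 132, 486, 448 and 274 in that order. The settings that leave out deep or marker-rich members were added after seeing the data.

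A named gene value between labels counted as unchanged if it stayed on the same side of the fold. For the ranked ratios of members to other H2-Aa cells, only the sign had to be kept. By this count 967 values were unchanged (22 of them, past the fold in neither setting, with the sign turned), 158 no longer passed the fold, 31 newly passed it and 17 reversed. In irradiated against normal these were the log2 ratios of Ccl9 (-0.07) and Cxcl2 (-0.48) without doublets, Cxcl2 (-0.51) without all doubtful members, Fos (0.13) and Jund (0.78) after thinning, Fos (0.24) and Jund (0.33) without deep members, and Jund without B-cell UMIs (0.30) and without deep and marker-rich members (0.36). In continuous they were Tnfrsf4 (0.47) and Krt16 (-0.38) after thinning and Krt16 (-0.35) without all doubtful members. Krt14 in chronic was at -2.33 with the rule of 2 UMIs each, -4.55 without deep members, -2.65 without deep and marker-rich members and -0.50 without all doubtful members, and Krt16 in acute at -0.57 without deep members. The cause was not tested. No paired analysis was possible because each label had 1 library. The alternatives gave no count for pretreatment, which had 11 members. A gene without UMIs in the 11 to 81 members of a library is not shown to be absent there.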
